A study of Mus musculus with 6 samples.

Results

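The genes of the calmodulin-dependent (CaM) kinases and of the CaMKII inhibitor proteins were followed in hippocampal RNA-seq of WT and TG mice. They were the rows of the deposited gene table named Camk2a, Camk2b, Camk2d, Camk2g, Camk2n1, Camk2n2, Camk1, Camk4, Camkk1 and Camkk2, that is, 10 of the 54532 genes listed. They were chosen by gene symbol, with no threshold on a measured value. In the TG mice, G82R and L85P were knocked into exon 3 of Slc1a2, which encodes the glutamate transporter GLT-1, on a C57BL/6N background with CRISPR/Cas9, and the WT mice were wild-type littermates. Each group had 3 libraries, named by group and replicate number (WT1, TG1 and so on). No library was treated with a drug, and the labels give neither the age and sex of these mice nor whether the TG mice carried the changes on 1 or both copies of the gene. The study looked at calcium entry through STIM1 and Orai1 in relation to GLT-1 and used phosphorylated CaMKII as a readout. By Western blot, with total CaMKII protein blotted beside it, it reported less phosphorylated CaMKII in TG hippocampus. The values followed here are mRNA levels only.

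CaM kinases are switched on when calcium enters the cell and binds calmodulin. CaMKII, built from the subunits that Camk2a, Camk2b, Camk2d and Camk2g encode, is among the most abundant proteins of the excitatory synapse, where its activation is needed for long-term potentiation. Camk2n1 and Camk2n2 encode small proteins that bind the active kinase and block it. CaMKI and CaMKIV form a separate cascade, in which an upstream kinase, CaMKK, phosphorylates them, and CaMKIV acts in the nucleus on transcription factors such as CREB.

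Between TG and WT hippocampus, no difference in any of the 10 mRNAs was detected. The log2 fold changes (TG minus WT, of FPKM + 0.1) ran from -0.015 for Camk2b to 0.17 for Camk2d, and for 9 of the 10 genes the group means differed by less than the larger of the group SDs. The table gives FPKM, read fragments per gene scaled to the gene's length and the library's depth. Each difference was tested with limma over all 20952 genes whose mean FPKM reached 0.1, with Benjamini-Hochberg adjusted p-values and a threshold of 0.05. With limma, 0 of the 10 genes were called at the adjusted threshold and 0 at an unadjusted p under 0.05, against 0.00955% and 5.91% of all genes tested, and limma-voom on the recovered reads called 0 at either. In 0 of the 10 genes did the WT and TG libraries lie apart, which they did in 12.1% of all genes tested. The widest 95% confidence limits reached a fold of 0.824 on the lower side, for Camk2n1, and 1.51 on the upper side, for Camk2d. Each interval is that of a single gene, with no adjustment for 10 genes, and covers the spread between the libraries only.

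The subunits of CaMKII are alike in their coding sequence, which bears on whether a read can be assigned to 1 gene, and stretches of 2 gene pairs are shown to let a reader see how alike. In the GENCODE M21 transcripts (GRCm38), the longest run of identical bases between the principal transcripts of any 2 CaMKII genes was 32 bases, between Camk2a and Camk2b. Between Camk2b and Camk2g, as between Camk2a and Camk2g, it was 29 bases, and between Camk2n1 and Camk2n2 it was 23. Shown are Camk2b with Camk2g and the inhibitor pair, not the longest run of all, and each stretch holds the pair's run with 25 bases on either side, all coding and read 5′ to 3′ along the transcript across an exon junction, with capitals for the bases that both genes share. The Camk2b stretch lies in exons 5 and 6 at chr11:5992868-5997936 on the minus strand and the Camk2g stretch in exons 5 and 6 at chr14:20766201-20770117 on the minus strand. The Camk2n1 stretch lies in exons 1 and 2 at chr4:138455293-138456731 on the plus strand and the Camk2n2 stretch in exons 1 and 2 at chr16:20620230-20621084 on the minus strand.
Camk2b: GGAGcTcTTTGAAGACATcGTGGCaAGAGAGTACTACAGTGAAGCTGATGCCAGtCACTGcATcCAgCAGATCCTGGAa
Camk2g: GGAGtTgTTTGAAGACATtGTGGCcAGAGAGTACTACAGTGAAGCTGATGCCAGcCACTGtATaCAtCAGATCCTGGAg
Camk2n1: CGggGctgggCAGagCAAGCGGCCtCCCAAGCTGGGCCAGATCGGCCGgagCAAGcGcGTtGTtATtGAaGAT
Camk2n2: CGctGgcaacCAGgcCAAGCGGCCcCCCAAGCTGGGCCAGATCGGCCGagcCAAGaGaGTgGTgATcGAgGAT

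Of the 79 bases shown, 70 were identical between Camk2b and Camk2g, and of the 73 bases of the inhibitor pair, 54 were. No stretch of 50 bases was shared by any 2 of the 10 genes on either strand. With other genes, 2.22% of the 50-base stretches of Camk1 were shared, with Ogg1, which overlaps it on the opposite strand, and 0.710%, 0.293% and 0.159% of those of Camk4, Camk2a and Camk2b were shared. The other 6 genes shared none. The strand setting of the counting is not given in the sources used here, so reads of Camk1 and Ogg1 cannot be told apart where they overlap.

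The levels of the 10 mRNAs spanned a wide range. Camk2a had the highest level and stood at rank 34 of the 20952 genes tested, whereas Camk2d had the lowest and stood at rank 10104. By mean FPKM over the 6 libraries the order was Camk2a, Camk2n1, Camk2b, Camk2n2, Camkk1, Camk2g, Camkk2, Camk4, Camk1 and Camk2d. Neighbours in this order had ranges that did not overlap, except for Camk2n2 with Camkk1, where Camk2n2 was higher in 5 of 6 libraries, and Camkk2 with Camk4, where Camkk2 was higher in 6 of 6. FPKM divide by the length of the whole gene model, and with the length of the principal transcript in its place Camk2b (351) stood above Camk2n1 (222), while Camk2a (800.0) remained the highest and Camk2d (11.3) the lowest. With that length Camkk2 (53.8) was higher than Camk4 (52.3) in 4 of 6 libraries. The ranges of Camk2g and Camkk2 then overlapped as well, with Camk2g higher in 6 of 6. For Camk4 the deposited length was 12331 bases and the exons of GENCODE M21 cover 3259. Its level depends on that length, and how reads outside the GENCODE exons enter its fold change was not tested.

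**Figure D1:**
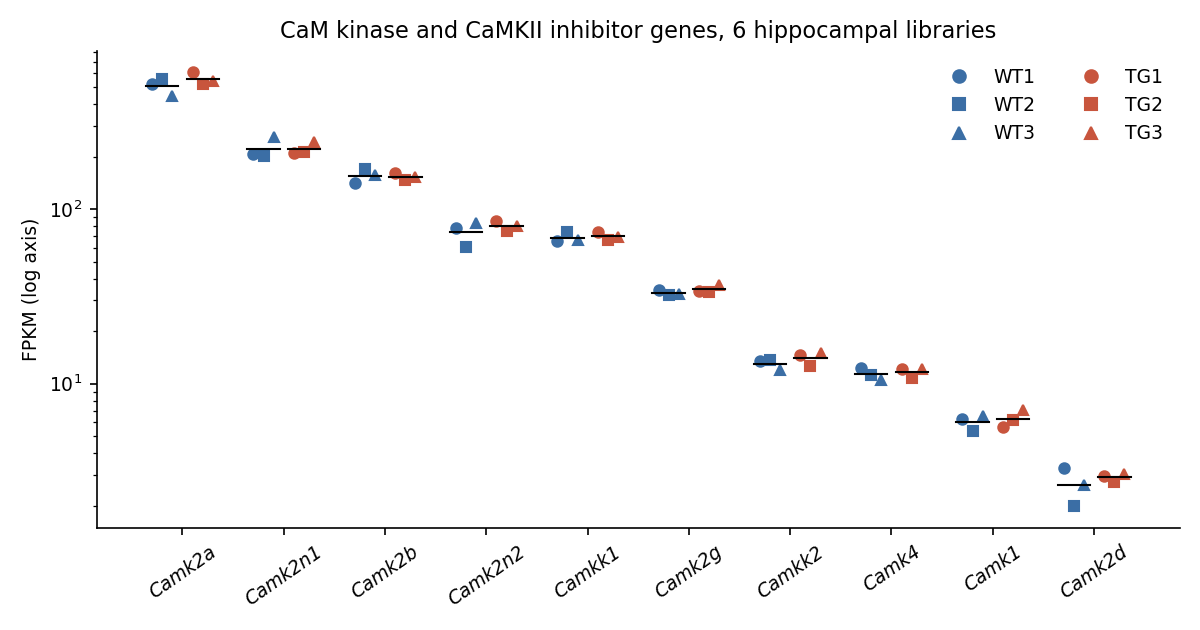
FPKM (log axis) of the 10 genes in the 6 libraries, ordered by mean level; points are libraries (blue, WT; red, TG; circle, square and triangle, replicates 1, 2 and 3) and lines are group means. Camk2a lies highest, Camk2d lowest, and the WT and TG points overlap in every gene.

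Camk2a (ENSMUSG00000024617; chromosome 18, 60925618 to 60988152, plus strand, GRCm38) encodes the alpha subunit, which forebrain excitatory neurons make in large amounts. Its FPKM was 521, 559 and 449 in WT, in the order of replicates 1 to 3, and 608, 519 and 539.7 in TG. The lowest value was in WT3 and the highest in TG1, and the groups overlapped. The means were 509 ± 56.0 in WT and 556 ± 46.6 in TG (SD, n = 3 each). The log2 fold change was 0.13 (SE 0.125, 95% confidence interval -0.16 to 0.42, limma adjusted p = 0.802), a difference within the spread of the replicates. Without WT3 it was 0.039 and without TG1 it was 0.061.

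Camk2b (ENSMUSG00000057897; chromosome 11, 5969644 to 6066362, minus strand) encodes the beta subunit, which binds actin in dendritic spines. Its FPKM was 142, 169 and 157 in WT and 162, 148 and 152 in TG. All 3 TG values lay inside the WT range. The log2 fold change was -0.015 (SE 0.0905, 95% confidence interval -0.23 to 0.20, limma adjusted p = 0.974).

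Camk2g (ENSMUSG00000021820; chromosome 14, 20734875 to 20794088, minus strand) encodes the gamma subunit, which can carry calmodulin from the synapse towards the nucleus. Its FPKM was 34.2, 32.1 and 32.5 in WT and 33.8, 33.6 and 36.7 in TG. It was the steadiest of the 10 genes, with a coefficient of variation of 4.80% over the 6 libraries. The means were 32.9 ± 1.13 in WT and 34.7 ± 1.73 in TG (SD, n = 3 each), and the groups overlapped. Camk2g was the only gene of the 10 whose means differed by more than the larger group SD. The log2 fold change was 0.074 (SE 0.0668, 95% confidence interval -0.083 to 0.23, limma adjusted p = 0.789).

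Camk2d (ENSMUSG00000053819; chromosome 3, 126596302 to 126846326, plus strand) encodes the delta subunit, best known as the main form in heart. Its FPKM was 3.31, 1.98 and 2.61 in WT and 2.94, 2.75 and 3.04 in TG, with 721 to 1375 reads. The WT libraries held both the highest and the lowest value, and all TG values lay between them. The log2 fold change was 0.17 (SE 0.181, 95% confidence interval -0.26 to 0.59, limma adjusted p = 0.826), the widest interval of the 10 genes. It moved to 0.34 without WT1 and to -0.015 without WT2.

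Camk2n1 (ENSMUSG00000046447; chromosome 4, 138454314 to 138460123, plus strand) encodes the more abundant of the inhibitors here. Its FPKM was 208, 202 and 258 in WT and 211, 212 and 241 in TG. The highest value was in WT3, where Camk2a was lowest, and the next highest was in TG3. The means were 223 ± 30.9 in WT and 222 ± 17.1 in TG (SD, n = 3 each). The log2 fold change was -0.00044 (SE 0.119, 95% confidence interval -0.28 to 0.28, limma adjusted p = 0.999).

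Camk2n2 (ENSMUSG00000051146; chromosome 16, 20619215 to 20621287, minus strand) encodes the second inhibitor. Its FPKM was 78.5, 61.1 and 83.5 in WT and 85.9, 75.2 and 79.7 in TG. The low value of WT2 stood below the rest, and the other 5 libraries overlapped. The log2 fold change was 0.12 (SE 0.125, 95% confidence interval -0.17 to 0.41, limma adjusted p = 0.815), and it was -0.015 without WT2. The Camk2n1 to Camk2n2 ratio was 2.65, 3.31 and 3.09 in WT and 2.46, 2.82 and 3.03 in TG, so that Camk2n1 was the higher in every library and the groups overlapped.

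In the cascade of CaMKK, CaMKI and CaMKIV, 0 of the 4 genes passed either threshold with limma or limma-voom. With limma, 0.00955% and 5.91% of all genes passed. Camkk1 (ENSMUSG00000020785; chromosome 11, 73019008 to 73042073, plus strand) encodes CaMKK alpha, and its FPKM was 66.0, 74.0 and 66.2 in WT and 74.0, 66.9 and 69.3 in TG. Its log2 fold change was 0.028 (SE 0.0773, 95% confidence interval -0.15 to 0.21, limma adjusted p = 0.936). Camkk2 (ENSMUSG00000029471; chromosome 5, 122731170 to 122779409, minus strand) encodes CaMKK beta, which also phosphorylates the energy sensor AMPK, and its FPKM was 13.5, 13.7 and 11.97 in WT and 14.6, 12.6 and 14.9 in TG. TG1 and TG3 lay above all WT libraries, and TG2 lay among them. Its log2 fold change was 0.11 (SE 0.0932, 95% confidence interval -0.11 to 0.32, limma adjusted p = 0.789). Camkk1 was 4.65 to 5.53 times as high as Camkk2 in FPKM over the 6 libraries, and 1.27 to 1.52 times with the length of the principal transcript.

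Downstream of CaMKK, Camk1 (ENSMUSG00000030272; chromosome 6, 113334124 to 113343984, minus strand) encodes cytoplasmic CaMKI alpha. Its FPKM was 6.28, 5.34 and 6.51 in WT and 5.63, 6.21 and 7.03 in TG, with a log2 fold change of 0.056 (SE 0.117, 95% confidence interval -0.22 to 0.33, limma adjusted p = 0.913). Camk4 (ENSMUSG00000038128; chromosome 18, 32939041 to 33195767, plus strand) encodes the nuclear kinase CaMKIV. Its FPKM was 12.4, 11.2 and 10.5 in WT and 12.1, 10.8 and 12.1 in TG, with a log2 fold change of 0.042 (SE 0.0880, 95% confidence interval -0.16 to 0.25, limma adjusted p = 0.914). In both genes the groups overlapped.

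**Figure D2:**
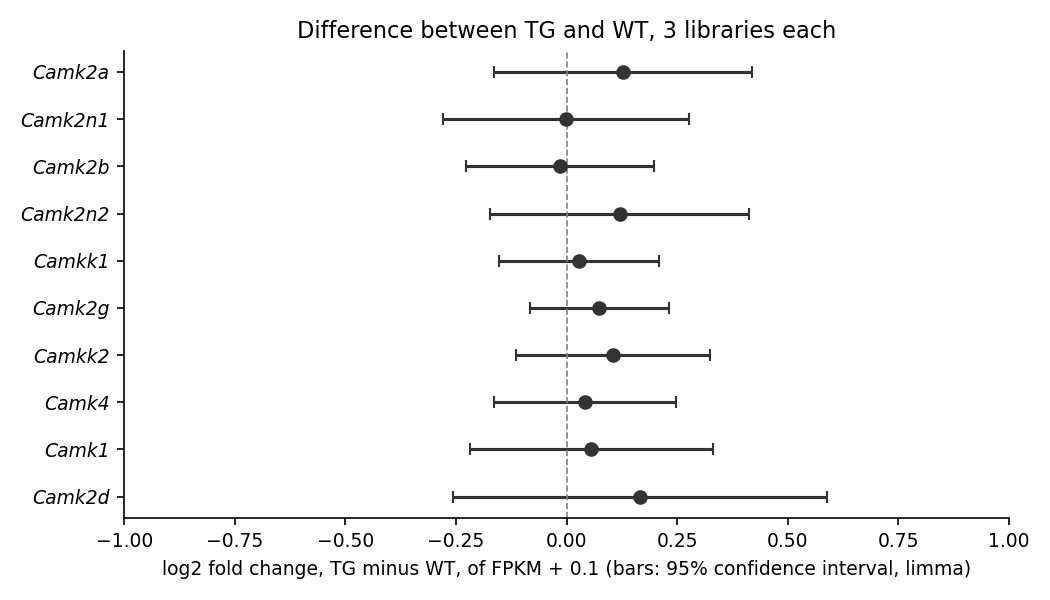
Log2 fold change (TG minus WT, of FPKM + 0.1) of the 10 genes, with bars for the 95% confidence interval from limma and a dashed line at 0 (n = 3 libraries per group). Every interval includes 0, and the widest, that of Camk2d, ends at 0.59.

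The 10 fold changes were above 0 in 8 genes and below 0 in 2, with a median of 0.065. Over all genes tested the median was -0.0020 and 49.6% were above 0. The number of the 10 above 0 was 6 without WT2, 7 after a correction for gene length and 10 without TG2. It was also 7 without TG3 and 10 with Ttr, a choroid plexus marker, as a covariate. Without both TG1 and TG2, which leaves 1 TG library, it was 9. The 10 genes share the same libraries and are not independent, and pairs of them correlated at -0.78 to 0.83 (Pearson r). Counting error was small for these genes. From the recovered reads, it came to 0.399% of the value for Camk2a and 4.41% for Camk1 at most, whereas the values varied over the 6 libraries by 4.80% for Camk2g up to 16.4% for Camk2d. In each of the 10 genes the counting error was smaller than the variation over the libraries.

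The make-up of CaMKII mRNA was compared within libraries, where a ratio does not depend on the scaling of the library. A ratio of genes of unlike length can still carry the gene length trend of a library, given below. No ratio was corrected for that trend. Camk2a made up 70.1% to 75.4% of the summed FPKM of the 4 subunit genes, Camk2b 20.1% to 24.5%, Camk2g 4.19% to 5.07% and Camk2d 0.260% to 0.472%. With the length of the principal transcript, the share of Camk2a was 61.5% to 67.6%, that of Camk2b 27.2% to 32.4%, that of Camk2g 4.31% to 5.15% and that of Camk2d 0.628% to 1.14%. Camk2a was therefore the main subunit mRNA in each library under either length.

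The ratio of alpha to beta subunit sets the proportions of the mixed CaMKII holoenzyme. The Camk2a to Camk2b ratio in FPKM was 3.68, 3.30 and 2.86 in WT and 3.75, 3.52 and 3.55 in TG. The means were 3.28 ± 0.409 and 3.61 ± 0.129, and WT1 lay inside the TG range. The log2 difference was 0.14 (exact two-sided permutation p = 0.3, adjusted p = 0.8 over 4 comparisons), and it was 0.048 without WT3. With 3 libraries against 3, the smallest p this test allows is 0.1.

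The ratio of the summed inhibitor genes to the summed CaMKII genes was 0.409, 0.346 and 0.534 in WT and 0.368, 0.409 and 0.439 in TG. The WT libraries held the lowest and the highest ratio, the highest in WT3. The log2 difference was -0.063 (exact two-sided permutation p = 0.9, adjusted p = 0.9), and it turned to 0.11 without WT3. With the length of the principal transcript the ratio was lower, 0.205 to 0.312 over the 6 libraries. The share of Camk2d and Camk2g in the CaMKII genes was 5.36%, 4.47% and 5.48% in WT and 4.55%, 5.16% and 5.43% in TG, with a log2 difference of -0.014 (exact two-sided permutation p = 0.9, adjusted p = 0.9). The summed FPKM of the 4 CaMKII genes was 700.3, 762 and 640.2 in WT and 807, 703 and 732 in TG. The log2 difference of the sum was 0.094 (exact two-sided permutation p = 0.4, adjusted p = 0.8), and the groups overlapped in all 4 of these measures.

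**Figure D3:**
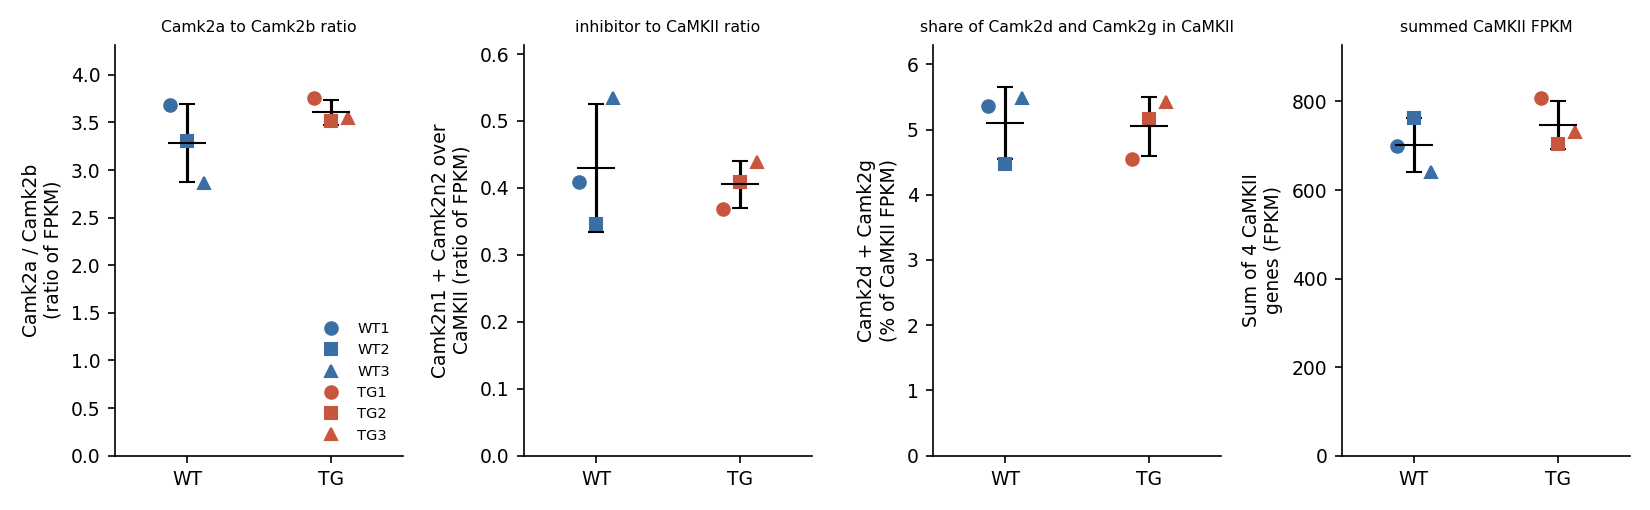
Camk2a to Camk2b ratio, inhibitor to CaMKII ratio, share of Camk2d and Camk2g (%) and summed CaMKII FPKM in WT (blue) and TG (red) libraries; symbols mark the replicate number, and bars give the mean and SD of 3 libraries. The groups overlap in each panel, and WT3 has the lowest Camk2a to Camk2b ratio and the highest inhibitor ratio.

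The opposite extremes of Camk2a and Camk2n1 in WT3 stood beside a difference between the libraries in gene length. Genes under 1500 bases had a median log2 deviation from their 6-library mean of 0.21 in WT3 and -0.16 in TG1, genes of 1500 to 5000 bases had 0.073 and -0.020, and genes over 5000 bases had -0.092 and 0.060 (only genes whose mean FPKM reached 1). Camk2a, with 7465 bases, deviated by -0.24 in WT3 and by 0.20 in TG1, whereas Camk2n1, with 4444 bases, deviated by 0.22 and -0.066. Both deviated further than the median of their own length class in these libraries. Camk2d, Camk2g, Camk4 and Camkk2, all over 5000 bases, had the sign of that class in both libraries. Camk1 (5975 bases) went against it, at 0.082 in WT3 and -0.12 in TG1, as did Camk2b (9125 bases) at 0.019 in WT3. Camkk1 (3728 bases) went against its class, at -0.066 in WT3 and 0.094 in TG1. Camk2n2 (1291 bases) had the sign of its class in WT3 (0.12) but not in TG1 (0.16). After a smooth correction for gene length in each library, chosen after the data were seen, the log2 fold change of Camk2a was 0.085 and that of Camk2n2, the shortest of the 10 genes with 1291 bases, was 0.22 (limma adjusted p = 0.799). The part of gene length in the values of these genes was not tested.

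**Figure D4:**
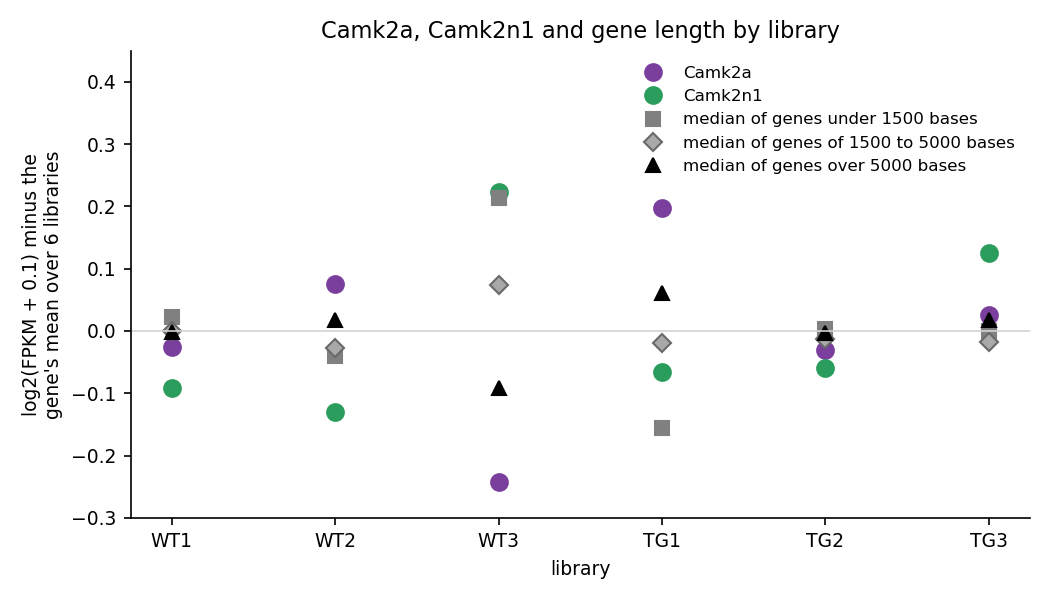
Deviation of log2(FPKM + 0.1) from the gene's mean over the 6 libraries for Camk2a (purple) and Camk2n1 (green), beside the median deviation of genes under 1500 bases (grey squares), of 1500 to 5000 bases (grey diamonds) and over 5000 bases (black triangles). In WT3 Camk2a lies at -0.24, beside -0.092 for genes of its length class, and Camk2n1 at 0.22, beside 0.073 for genes of its own. Not all of the genes left out of the figure had the sign of their class.

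The genes around the CaM kinases were taken from 6 lists with 58 genes in all, each of which was tested. With limma, 0 of the 58 were called at the adjusted threshold, where limma called 0.00955% of all genes, and 3 were higher and 2 lower at an unadjusted p under 0.05, which is 8.62% against 5.91% of all genes. The groups lay apart in 11 of the 58 (19.0%), against 12.1% of all genes. The lowest adjusted p among the 58 was 0.786. The median log2 fold change of the 58 genes was 0.029.

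Among other CaM kinases and related kinases, 0 of 11 genes passed either threshold, against 0.00955% and 5.91% of all genes. The median log2 fold change was 0.027. The smallest p in that list was that of Pnck, which encodes CaMKI beta, with an FPKM of 46.7, 43.8 and 55.3 in WT and 41.4, 43.3 and 39.8 in TG and a log2 fold change of -0.22. The most abundant was Camkv, a pseudokinase of the synapse, with 229, 250.4 and 247 in WT and 261, 225 and 219 in TG. Its groups overlapped. Those of Pnck lay apart, the only 1 of the 11 genes where they did, against 12.1% of all genes.

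Of 7 genes for calmodulin and proteins that bind it, Pcp4l1 alone passed the unadjusted threshold, against 5.91% of all genes. The median was -0.035. Pcp4l1, a relative of the calmodulin regulator PCP4, had an FPKM of 32.7, 28.0 and 31.6 in WT and 36.4, 46.4 and 35.9 in TG (log2 fold change 0.36, limma adjusted p = 0.786). All TG values lay above all WT values, and it was the only 1 of the 7 genes with groups apart, against 12.1% of all genes. Its highest value was in TG2, which also had the highest sum of choroid plexus markers (3840.2, given below). TG3 had a sum of 66.0, within the WT range. The part of choroid plexus in these values was not tested. Calm2, a calmodulin gene and the most abundant of the list, had 993, 955 and 1263 in WT and 803, 936 and 979 in TG.

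The 11 phosphatase genes code for the enzymes that oppose CaMKII and their regulators. Of them, 1 was lower at the unadjusted threshold, against 5.91% of all genes, and the median was -0.11. The groups lay apart in 3 of the 11, against 12.1% of all genes. Ppp3cc, a catalytic subunit of calcineurin, had an FPKM of 6.11, 5.48 and 6.08 in WT and 5.10, 5.16 and 5.14 in TG (log2 fold change -0.19). Ppp3r1, the regulatory subunit of calcineurin and the most abundant of the list, had 282, 298 and 389 in WT and 299.5, 273 and 281 in TG, highest in WT3.

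Of 11 CaMKII partners and substrates at the synapse, 0 passed either threshold, against 0.00955% and 5.91% of all genes. The median was 0.10. Actn2, an actinin that binds CaMKII in the spine, had the smallest p, with an FPKM of 4.46, 4.40 and 4.46 in WT and 4.11, 3.87 and 3.78 in TG (log2 fold change -0.18). Its groups lay apart, the only 1 of the 11 genes where they did, against 12.1% of all genes. Gria1, a glutamate receptor subunit that CaMKII phosphorylates, was the most abundant, with 165, 193 and 163 in WT and 190.1, 159.7 and 160.0 in TG. The median deviation of that list from its WT mean was -0.22 in WT3 and 0.21 in TG1, the same libraries in which Camk2a was lowest and highest.

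The 12 nuclear targets of the CaMKK and CaMKIV branch had a median of 0.11. Of them, 1 was higher at the unadjusted threshold, against 5.91% of all genes. That gene was Hdac4, a class II histone deacetylase that CaM kinases move out of the nucleus, with an FPKM of 4.09, 3.99 and 3.10 in WT and 4.97, 4.22 and 4.78 in TG (log2 fold change 0.32). Mef2d, a transcription factor that class II histone deacetylases hold in check, was the most abundant, with 44.995, 45.6 and 35.02 in WT and 48.8, 42.5 and 45.01 in TG.

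Of 6 AMPK subunit genes, which lie downstream of Camkk2, 1 was higher and 1 lower at the unadjusted threshold, against 5.91% of all genes. Their median log2 fold change was -0.015. Prkab1, a beta subunit, had an FPKM of 4.59, 4.52 and 5.10 in WT and 3.48, 4.17 and 3.92 in TG (log2 fold change -0.29), and the other beta subunit gene, Prkab2, had a log2 fold change of 0.18. The groups lay apart in both. Over the list they lay apart with TG higher in 2 genes and lower in 1, against 12.1% of all genes in either direction. Prkag2, a gamma subunit and the most abundant, had 17.9, 17.1 and 17.7 in WT and 18.2, 16.9 and 16.6 in TG.

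Over the whole series, the libraries held 16081281 to 18751057 reads on genes, so that 3 reads on 1 kb correspond to an FPKM of 0.160 to 0.190. Slc1a2 itself had an FPKM of 202, 199.5 and 177 in WT and 222, 207 and 217 in TG, a level that does not show the changed bases. All TG values lay above all WT values (log2 fold change 0.16, limma adjusted p = 0.789), and the groups lay apart in 12.1% of all genes. By Western blot, the paper reports GLT-1 protein as almost absent from TG hippocampus. Excitatory and hippocampal markers were present in each library, among them Slc17a7 (237 to 322) and the dentate marker Prox1 (9.81 to 14.4). Summed over 10 choroid plexus markers, of which 0 were listed at 0 in any library, FPKM was 57.8 to 82.3 in WT and 1214, 3840.2 and 66.0 in TG. Without TG1 and TG2, the libraries with the high sums, the log2 fold change of Camk2a was 0.089 and that of Camk2n1 was 0.13. That fit leaves TG3 as the only TG library, assumed to vary as the WT libraries do. The summed FPKM of 5 neuron markers was 802 to 838 in WT and 781 to 884 in TG, highest in TG1, where Camk2a was highest. It was lowest in TG2, whereas Camk2a was lowest in WT3, where the sum was 802. The log2 fold changes of the 5 neuron markers were above 0 in 4 and below 0 in 1 (-0.12). The sum of 5 oligodendrocyte markers was 636, 593 and 497 in WT and 399, 541 and 586 in TG, lowest in TG1. Their log2 fold changes were below 0 in 5 of 5, with a median of -0.30. With limma, 0 of 5 passed either threshold, against 0.00955% and 5.91% of all genes. The groups lay apart in 1 of the 5, against 12.1% of all genes. The part of these cell types in the values of the CaM kinase genes was not tested. In bulk tissue, fewer cells of a type and less RNA per cell cannot be told apart.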

How the data were processed

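Hippocampal RNA of WT and TG mice was measured, with 3 libraries per group. Per the study's methods, the authors counted reads with HTSeq, and they deposited FPKM computed from read count and gene length, with 1 column per library. For extraction and library, the labels give RNeasy and SMARTer kits but the methods Trizol and NEBNext. The builds GRCm38 and mm10 come from the submitters' processing notes, and the aligner is not given in the sources used here. Reads were recovered from the FPKM steps (100% whole within 0.05 reads).

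Genes whose mean FPKM reached 0.1 were tested on log2(FPKM + 0.1) with limma 3.58.1 in R 4.3.3 (lmFit, eBayes with a trend) over all 6 libraries, without covariates, with Benjamini-Hochberg adjustment. This scale understates changes of low genes. The test was run on simulated data first. Ratios were compared by exact permutation. P-values measure the spread between these libraries. The labels' titles, such as TG mice 1, do not say whether each library is 1 mouse. Counting limits cover counting error only.

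All members were described, and of each list the genes with the smallest p and the highest mean. Prkab2 and the marker genes Slc17a7 and Prox1 were named after their values were seen. Members and lists were chosen with earlier results of these data known. Alternatives were other pseudocounts and filters, no trend, rescaling, a replicate block, Ttr as a covariate, left-out libraries and limma-voom, and, chosen after seeing the data, principal transcript lengths and a correction for gene length.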

Additional observations from a re-analysis of the deposited data

How the results depend on the processing

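Under each of 17 alternatives, 0 of the 10 genes were called and 0 had an unadjusted p under 0.05 with limma, and their median log2 fold change stayed between 0.034 and 0.13. Camk2a, Camk2g, Camkk2, the Camk2a to Camk2b ratio and the summed CaMKII FPKM kept their direction in all alternatives run, Camk2a between 0.039 and 0.20. With 1 library left out at a time, these log2 differences took both signs: Camk2b (-0.082 to 0.047), Camk2d (-0.015 to 0.34), Camk2n1 (-0.066 to 0.11), Camk2n2 (-0.015 to 0.21), Camk1 (-0.029 to 0.13), Camk4 (-0.013 to 0.10), Camkk1 (-0.012 to 0.082), the inhibitor to CaMKII ratio (-0.21 to 0.11) and the share of Camk2d and Camk2g (-0.11 to 0.059). Without TG1 and TG2, which leaves 1 TG library whose spread is taken from WT, Camk2n1 turned to 0.13, the inhibitor ratio to 0.056 and the share to 0.095. With Ttr as a covariate, Camk2b turned to 0.0021 and Camk2n1 to 0.10. With the gene length correction Camk4 turned to -0.040, and with principal transcript lengths the share turned to 0.0042. The cause of these turns was not tested. With a replicate block the median was 0.065 and 0 genes were called. Same-numbered WT and TG libraries correlated at 0.0031 to 0.043 in their deviations from the group means, so the numbers were not taken as pairs. Over all genes, limma called 2, with 9 when the variance trend was left out, 6 without TG1 and 0 to 2 in the other alternatives (0 with the replicate block), and 1238 had an unadjusted p under 0.05, against 704 with Ttr as a covariate. The lowest read count among these 10 genes was 515, that of Camk1, and the part of depth was not tested.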

Other observations

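Likeness to the pattern of Camk2a and of Camk2n1 over the 6 libraries was described over 13325 genes, those whose mean FPKM reached 1. The genes most like Camk2a were Abr (Pearson r = 0.996), Smarca4 (0.994), Sptan1 (0.992), Arl10 (0.992) and Robo2 (0.992). The FPKM of Abr was 72.7, 75.0 and 65.0 in WT and 80.7, 72.1 and 73.5 in TG, so that it was lowest in WT3 and highest in TG1, as Camk2a was. The genes most like Camk2n1 were Sarnp (0.987), Uba2 (0.986), Catsperz (0.979), Twf2 (0.977) and Rnf113a2 (0.977). With 6 points that share libraries and their gene length trend, such values describe these libraries only.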
